A study of Homo sapiens with 14 samples.

Results

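AP-1 and immediate early genes were followed in A549 and H1792 cells, a pair of established human lung adenocarcinoma lines, after treatment with the pan-aurora kinase inhibitor AMG900 or with its solvent DMSO. The set holds 10 of the 26760 genes listed: the Fos family genes FOS, FOSB, FOSL1 and FOSL2, the Jun family genes JUN, JUNB and JUND, and the stress and growth factor response genes ATF3, EGR1 and IER3. The genes were chosen by name, with earlier results of these data known, so counts set against all genes are descriptive. They were matched to the gene symbols of the count tables, and all 10 were found in both tables and passed the filter on low counts in each line.

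AP-1 is a dimer of basic leucine zipper proteins. Jun proteins pair with each other or with Fos proteins, whereas Fos proteins need a Jun partner, and ATF3 belongs to the same superfamily. Growth factor and stress kinases raise FOS, JUN and EGR1 within minutes in quiescent cells, while FOSL1 (Fra-1) and FOSL2 (Fra-2) follow later and can stay high in tumor cells with an active RAS and ERK pathway.

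A549 was represented by 4 DMSO and 4 AMG900 libraries and H1792 by 3 DMSO and 3 AMG900 libraries, all from unsorted cultures treated for 48 h, at 0.1 µM where AMG900 was given. A549 was grown in DMEM and H1792 in RPMI, both with serum and antibiotics, the labels name no genetic change, and each line is a single model of the disease. The protocol speaks of 3 replicates per treatment although 4 are listed for A549, so it is not clear that all 14 libraries came from separate dishes, and p-values measure the spread between these libraries, which may be partly technical. Total counts ran from 4254644 to 18962883 in A549 and from 42760874 to 79902934 in H1792. The shallowest library, A549 DMSO replicate 1, differed most from the other libraries of its group (chi-square per gene between 13.8 and 16.6, against 3.31 to 4.75 among the other 3). This measure grows with depth. In H1792 it ran from 14.8 to 48.3 between DMSO libraries, highest for replicates 1 and 2, and from 6.13 to 25 between AMG900 libraries. Of the 6 epithelial markers, keratins KRT7, KRT8, KRT18 and KRT19 were detected in every group, CDH1 averaged at least 1 CPM (count scaled to library size) only in A549 and EPCAM only in H1792, and of 5 lung alveolar markers only NAPSA averaged at least 1 CPM, in A549 with AMG900. Summed fibroblast markers were 3540 to 4510 CPM in H1792 with DMSO and 2640 to 2720 with AMG900, against 88.2 to 123 and 49.4 to 60.3 in A549. COL1A1, COL1A2, COL3A1, PDGFRB, DCN and LUM averaged 1 or more in H1792, and COL1A1 and THY1 in A549. THY1 went the other way from the sum, being lower in H1792 than in A549 with DMSO (log2 -8.51). Summed leukocyte markers were 56.3 to 82.7 CPM with DMSO and 156 to 175 with AMG900 in A549, and 100 to 116 and 171 to 197 in H1792. CD68 averaged 1 CPM or more in every group, ITGAM only in A549, and CD3E was at 0 with AMG900 in both lines. Endothelial markers summed to at most 17.1 CPM. The part of these markers in the changes described was not tested. In bulk RNA, a change in the number of expressing cells cannot be told apart from a change in RNA per cell.

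With AMG900, ATF3, EGR1, JUN and FOSL1 were upregulated in both lines at an FDR threshold of 0.01. The share of all genes upregulated in both lines was not counted. The FOSL1 call in A549 was lost with a correction for GC content, described below. FOSL2, FOSB and IER3 passed in only 1 of the lines by the test within that line, and JUNB, JUND and FOS in neither. In A549, 5 of 10 genes were upregulated (EGR1, ATF3, JUN, FOSL2 and FOSL1), against 17.2% of all 13174 genes tested, and 0 were downregulated, against 17.8%. In H1792, 6 of 10 were upregulated (FOSL1, FOSB, IER3, ATF3, EGR1 and JUN), against 16.2% of 15017 genes, and 0 were downregulated, against 18.8%. The median log2 fold change of the 10 genes was 0.48 in A549 and 0.66 in H1792, whereas the median over all genes tested was -0.01 and 0.01. Tests were edgeR's quasi-likelihood tests, with p-values adjusted by Benjamini-Hochberg over all genes tested in a line, and log2 fold changes are of AMG900 against DMSO. Every AMG900 library lay above every DMSO library for 7 of 10 genes in A549 (21.9% of all genes) and for 9 of 10 in H1792 (30.1% of all genes).

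**Figure D1:**
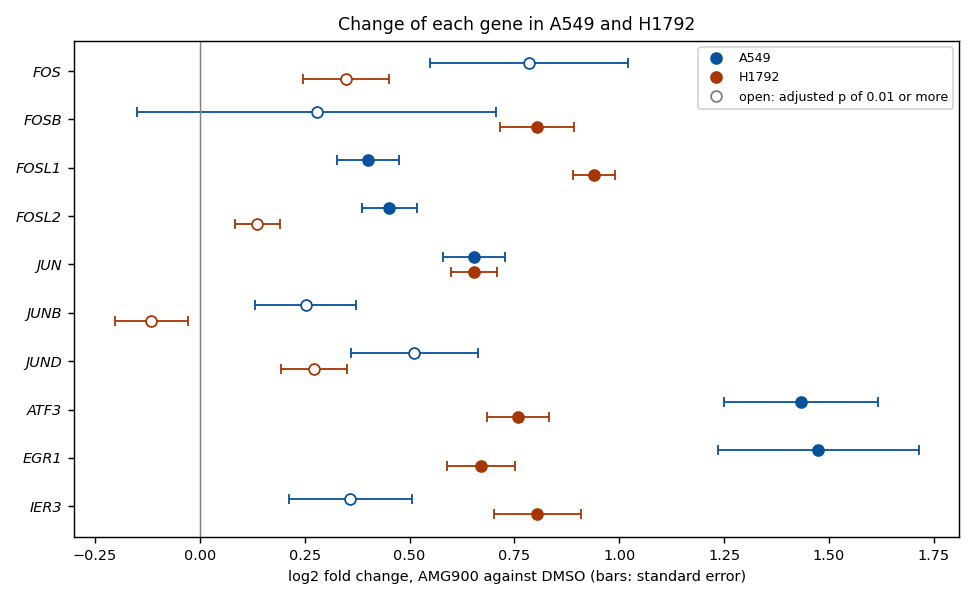
Log2 fold change of AMG900 against DMSO (x axis) for each of the 10 genes (y axis) in A549 (blue, 4 against 4 libraries) and H1792 (brown, 3 against 3 libraries), with bars of 1 standard error and filled points for an edgeR adjusted p under 0.01. Changes were positive in both lines for 9 genes, JUNB in H1792 being the exception, and the widest bar belongs to FOSB in A549, which had between 4 and 20 reads per library.

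Across all genes, fold changes were larger for transcripts of higher GC content (Spearman rho 0.50 in A549 and 0.48 in H1792, over genes, which are not replicates). The 10 genes are GC-rich, with transcripts between 50.4% (ATF3) and 69.9% (JUND) GC, against a median of 49.3% for the genes tested in A549 and 49.5% in H1792. With a correction for GC content, FOSL1 was no longer upregulated in A549 (log2 fold change 0.07, edgeR adjusted p = 0.381), while ATF3, EGR1, JUN and FOSL2 remained upregulated there and all 6 genes remained so in H1792. The part of GC content in these changes was not tested further.

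**Figure D2:**
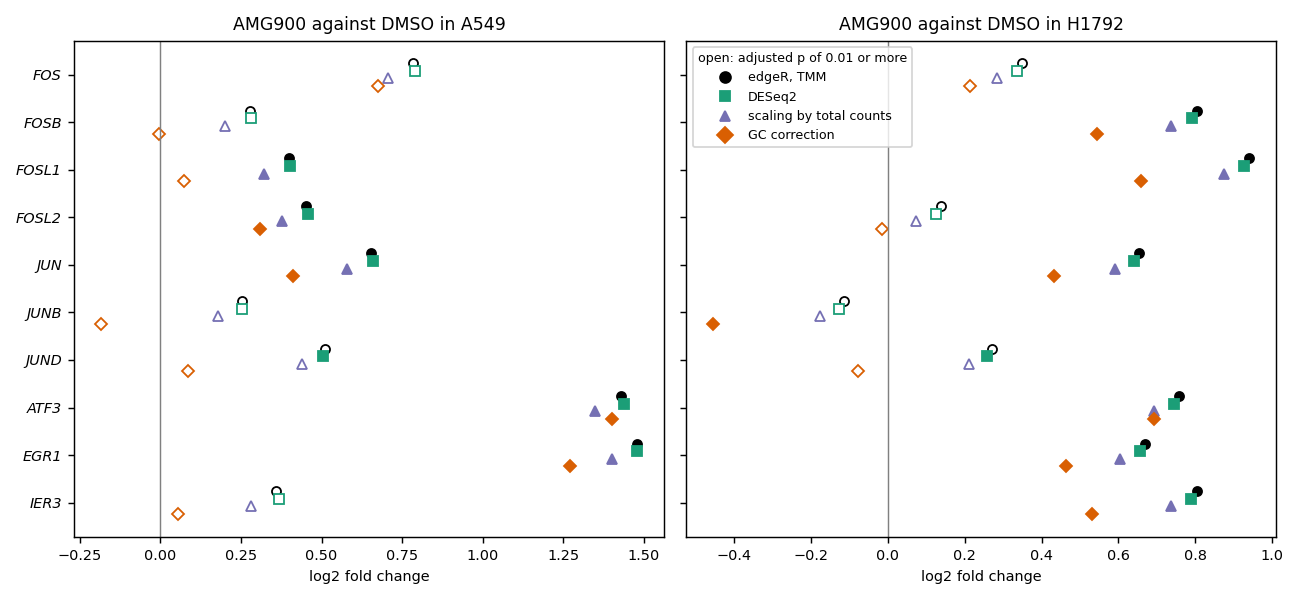
Log2 fold change (x axis) of each gene under 4 ways of processing the same counts: edgeR with TMM scaling (circles), DESeq2 (squares), edgeR with scaling by total counts (triangles) and edgeR with a correction for GC content (diamonds), filled where the adjusted p was under 0.01. Circles, squares and triangles lie close together, whereas the diamonds of the GC-rich genes JUNB and JUND lie furthest to the left of their circles.

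JUN (chr1:59242517-59249720, minus strand of GRCh37), the founding Jun protein and a target of JNK, rose by similar log2 fold changes in both lines. In CPM, TMM-scaled within a line, JUN measured 134, 127, 121 and 118 in A549 DMSO replicates 1 to 4 and 191, 187, 192 and 216 in the AMG900 replicates. The groups did not overlap, and AMG900 replicate 4 was the highest. The log2 fold change was 0.65 (SE 0.074, edgeR adjusted p = 5.5e-06). In H1792, JUN measured 285, 254 and 272 CPM with DMSO and 418, 435 and 423 with AMG900, again without overlap, a log2 fold change of 0.65 (SE 0.055, edgeR adjusted p = 1.1e-05). The responses of the lines differed by -0.08 (H1792 minus A549, SE 0.097, edgeR adjusted p = 0.608), and its sign turned under other scalings.

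JUNB (chr19:12902300-12904129, plus strand of GRCh37), a Jun protein that can oppose JUN at some promoters, did not pass the threshold in either line. It measured 250, 172, 190 and 175 CPM in A549 with DMSO and 208, 206, 241 and 277 with AMG900, so the groups overlapped through DMSO replicate 1 (log2 fold change 0.25, SE 0.12, edgeR adjusted p = 0.0961). Without that library the change was 0.38 (edgeR adjusted p = 0.000329). In H1792, JUNB measured 329, 247 and 293 CPM with DMSO and 272, 264 and 266 with AMG900 (log2 fold change -0.12, SE 0.088, edgeR adjusted p = 0.295). It was called lower without DMSO replicate 2 (-0.23, edgeR adjusted p = 0.00467) and with the GC correction (-0.46, edgeR adjusted p = 1.22e-05). JUNB shares 259 of its 1830 exonic bases with HOOK2 on the opposite strand, and the sources used here do not say whether strand was used in counting.

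JUND (chr19:18390504-18392432, minus strand of GRCh37), the Jun protein most steadily expressed in resting cells, likewise missed the threshold in both lines. Its level was 209 CPM in A549 DMSO replicate 1 and 115, 128 and 122 in the other 3 DMSO libraries, against 193, 189, 193 and 231 with AMG900. Replicate 1 stood among the AMG900 libraries. The log2 fold change was 0.51 (SE 0.15, edgeR adjusted p = 0.0118) with it and 0.73 (edgeR adjusted p = 6.62e-09) without it. With replicate 1 kept, JUND also passed the threshold with DESeq2 (adjusted p = 0.00594) and, by edgeR, without the filter on low counts (0.000384), with at least 10 counts in every library (0.00816) and with the replicate block (0.00952). In H1792, JUND measured 161, 126 and 141 CPM with DMSO and 171, 171 and 175 with AMG900, a log2 fold change of 0.27 (SE 0.08, edgeR adjusted p = 0.0158), and it was called higher without DMSO replicate 1 (0.35, edgeR adjusted p = 4.28e-05), with DESeq2 (adjusted p = 0.00586) and without the filter (edgeR adjusted p = 0.00763). With the GC correction the JUND values were 0.08 in A549 and -0.08 in H1792, neither past the threshold.

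FOSL1 (chr11:65659520-65668044, minus strand of GRCh37) was the most strongly upregulated of the 10 genes in H1792 by the main test. It encodes Fra-1, the Fos protein that accumulates under sustained ERK signaling. It measured 385, 392 and 393 CPM in the H1792 DMSO libraries and 782, 745 and 717 with AMG900. The groups were far apart, with a log2 fold change of 0.94 (1.92-fold, SE 0.05, edgeR adjusted p = 1.2e-06). Under the alternatives that kept all libraries, FOSL1 ranged from 0.659 to 0.956 there and ATF3 from 0.692 to 0.773. The top rank of FOSL1 therefore did not hold in all of them. In A549, FOSL1 measured 71.7, 77.3, 81.4 and 76.6 CPM with DMSO and 101, 95.7, 107 and 103 with AMG900, which was a smaller rise of 0.40 (1.32-fold, SE 0.074, edgeR adjusted p = 0.00047) and the one lost with the GC correction.

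FOSL2 (chr2:28615315-28640184, plus strand of GRCh37), which encodes Fra-2, was upregulated in A549 and not past the threshold in H1792. It measured 173, 159, 162 and 162 CPM in A549 with DMSO and 219, 220, 220 and 237 with AMG900, with no overlap (log2 fold change 0.45, SE 0.065, edgeR adjusted p = 5.4e-05). In H1792 it measured 133, 124 and 135 CPM with DMSO and 146, 143 and 143 with AMG900. These groups did not overlap either, but the log2 fold change was 0.14 (SE 0.053, edgeR adjusted p = 0.0517).

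FOS (chr14:75745529-75748933, plus strand of GRCh37) and FOSB (chr19:45971253-45978437, plus strand of GRCh37) encode the Fos proteins that carry transactivation domains and that respond first to stimulation. FOS in both lines and FOSB in A549 were low. FOS measured 2.58, 2.09, 1.94 and 2.49 CPM in A549 with DMSO and 4.157, 4.001, 4.208 and 3.168 with AMG900, from 11 to 78 reads per library. The groups did not overlap, and the log2 fold change of 0.78 (SE 0.24) had an edgeR adjusted p of 0.0132. In H1792, FOS measured 5.46, 5.25 and 4.92 CPM with DMSO and 6.78, 6.77 and 6.40 with AMG900, a log2 fold change of 0.35 (SE 0.1, edgeR adjusted p = 0.016). FOSB was upregulated in H1792, where it measured 18.4, 21.1 and 19.9 CPM with DMSO and 38.4, 31.9 and 33.4 with AMG900 (log2 fold change 0.80, SE 0.088, edgeR adjusted p = 5e-05). In A549, FOSB had 4, 8, 20 and 7 reads with DMSO and 13, 16, 17 and 16 with AMG900. A change was not detectable at this depth (log2 fold change 0.28, SE 0.43, edgeR adjusted p = 0.616), and the sign turned without DMSO replicate 4.

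ATF3 (chr1:212738676-212794119, plus strand of GRCh37), a basic leucine zipper factor induced by many stresses, was upregulated in both lines. It measured 3.06, 5.74, 4.78 and 6.83 CPM in A549 with DMSO and 15.1, 14.1, 13.8 and 15.2 with AMG900, a 2.7-fold rise (log2 fold change 1.43, SE 0.18, edgeR adjusted p = 1.9e-05). The lowest of the AMG900 libraries was well above the highest DMSO library. In H1792, ATF3 measured 13.8, 15.0 and 15.3 CPM with DMSO and 24.3, 25.2 and 25.2 with AMG900, a log2 fold change of 0.76 (SE 0.074, edgeR adjusted p = 2.7e-05).

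EGR1 (chr5:137801168-137804992, plus strand of GRCh37), a zinc finger factor and a classic readout of serum response factor and its ERK-activated partners, showed the largest log2 fold change of the 10 genes in A549 by the main test. ATF3 was close to it. Under the alternatives that kept all libraries, EGR1 ranged from 1.27 to 1.51 and ATF3 from 1.35 to 1.48, so this order did not hold in all of them. EGR1 measured 3.76, 3.82, 2.09 and 2.32 CPM in A549 with DMSO and 6.24, 7.44, 9.17 and 8.86 with AMG900 (log2 fold change 1.48, SE 0.24, edgeR adjusted p = 0.00016), on 16 to 170 reads per library. In H1792, it measured 19.97, 22.98 and 22.79 CPM with DMSO and 36.4, 36.0 and 32.2 with AMG900. Those groups did not overlap, and the log2 fold change was 0.67 (SE 0.082, edgeR adjusted p = 9.5e-05).

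IER3 (chr6:30710976-30712325, minus strand of GRCh37), an early response gene linked to cell survival, was upregulated in H1792 and missed the threshold in A549. It measured 11.7, 15.3 and 15.0 CPM with DMSO and 24.6, 24.9 and 23.5 with AMG900 in H1792 (log2 fold change 0.80, SE 0.1, edgeR adjusted p = 0.00014). In A549, it measured 11.3, 9.74, 9.12 and 9.97 CPM with DMSO and 11.4, 12.8, 15.0 and 11.5 with AMG900, with groups that touch without overlapping (log2 fold change 0.36, SE 0.15, edgeR adjusted p = 0.0541). The responses of the lines differed by 0.36 (SE 0.18, edgeR adjusted p = 0.151). IER3 shares 440 of its 1350 exonic bases with the antisense transcript IER3-AS1, which is not among the genes counted, and without strand the reads of these genes cannot be told apart.

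**Figure D3:**
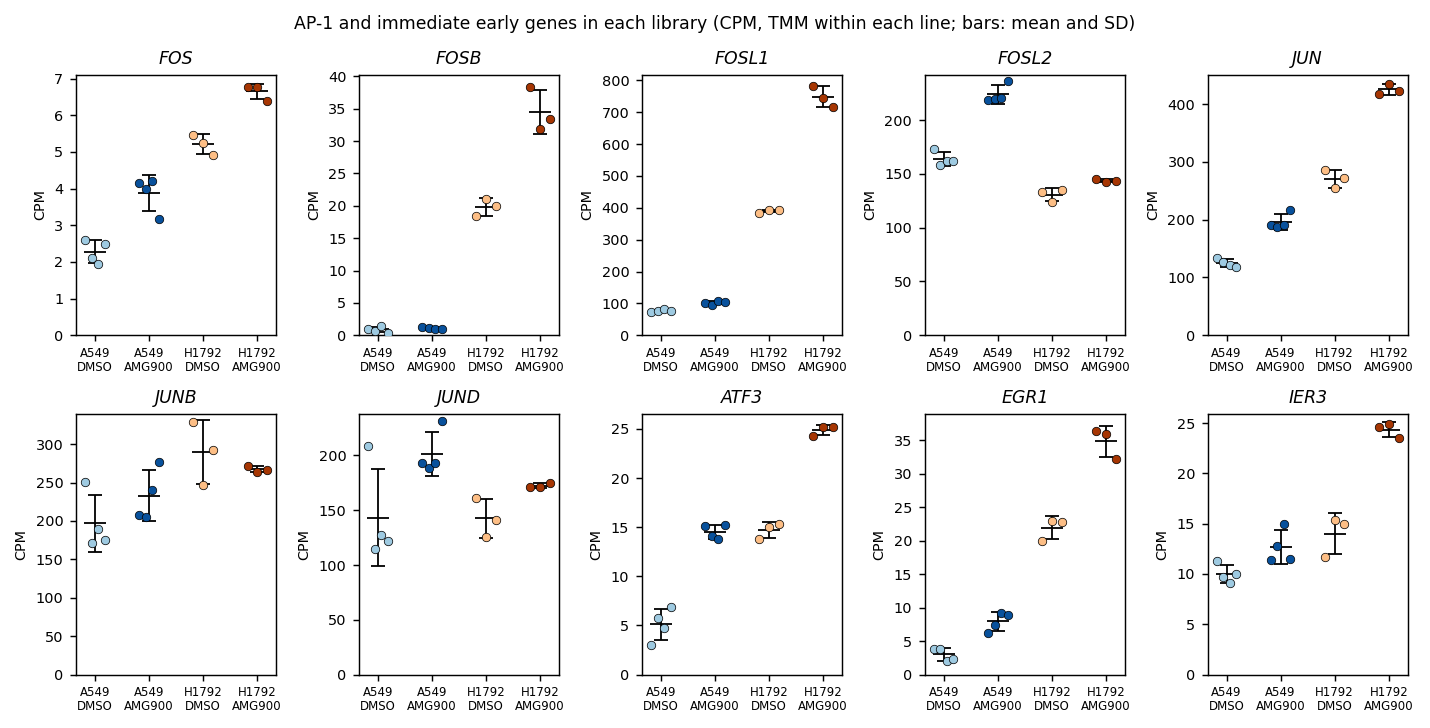
Level of each gene in every library in CPM (y axis, starting at 0, TMM-scaled within each line) by line and treatment (x axis). Points are libraries, and bars give the mean and SD of 4 (A549) or 3 (H1792) libraries. AMG900 libraries lie above the DMSO libraries without overlap for 7 genes in A549 (21.9% of all genes) and 9 in H1792 (30.1% of all genes). FOS, FOSL1, FOSL2, JUN, ATF3, EGR1 and IER3 do so in both lines, for which the share over all genes was not counted. The single high DMSO library of A549 in the JUND panel, at 209 CPM, is replicate 1.

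The promoters of EGR1, JUN and ATF3, upregulated in both lines, are shown to place the known response elements of these genes. Each window is the 250 bases before the start of the GENCODE transcript used for that gene, read from GRCh37 on the strand of the gene and written 5′ to 3′. Capitals mark, on either strand, a CArG box (bound by serum response factor), a MEF2 box, TGACATCA, TGACGT (the core shared by cyclic AMP response elements, also read as ACGTCA) or GCGNGGGCG (bound by EGR1 itself). The windows are chr5:137800918-137801167 on the plus strand for EGR1, chr1:59249720-59249969 on the minus strand for JUN and chr1:212781853-212782102 on the plus strand for ATF3.
EGR1: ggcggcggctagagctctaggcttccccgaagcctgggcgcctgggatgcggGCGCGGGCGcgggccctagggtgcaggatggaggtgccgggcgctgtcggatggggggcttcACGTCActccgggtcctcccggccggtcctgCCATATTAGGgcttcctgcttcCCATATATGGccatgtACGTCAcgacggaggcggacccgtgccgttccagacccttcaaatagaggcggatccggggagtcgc
JUN: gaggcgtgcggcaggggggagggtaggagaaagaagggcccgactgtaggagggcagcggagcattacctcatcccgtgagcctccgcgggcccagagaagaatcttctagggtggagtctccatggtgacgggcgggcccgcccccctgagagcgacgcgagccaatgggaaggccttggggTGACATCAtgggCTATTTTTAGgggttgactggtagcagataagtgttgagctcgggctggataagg
ATF3: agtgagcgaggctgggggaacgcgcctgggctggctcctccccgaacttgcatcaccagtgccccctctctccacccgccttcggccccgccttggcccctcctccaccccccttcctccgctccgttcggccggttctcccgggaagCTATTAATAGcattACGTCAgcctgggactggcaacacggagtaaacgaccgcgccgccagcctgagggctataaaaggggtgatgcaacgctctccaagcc

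EGR1 held 2 CArG boxes, 105 to 96 and 83 to 74 bases before its start, and a CArG box was found in 280 of 23567 such windows (1.19%). It also held GCGNGGGCG, which 11.1% of windows hold. JUN held TGACATCA, a variant AP-1 site, 67 to 60 bases before its start (1.95% of windows) and a MEF2 box at 55 to 46 (0.509% of windows). ATF3 held a MEF2 box at 102 to 93 bases and ACGTCA at 88 to 83 bases before its start. The core TGACGT was present in 7 of the 10 promoters (FOS, FOSB, FOSL1, FOSL2, JUND, ATF3 and EGR1), against 8% of all windows, and the full palindrome TGACGTCA, which contains it, only in that of JUND (2.13% of windows). The AP-1 consensus TGANTCA was found in none of the 10 windows, against 5.23% of all windows. These matches describe letters in a short window and were not tested for binding.

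With DMSO, 8 of the 10 genes were higher in H1792 than in A549 (34.2% of 14769 genes tested across both lines) and 1, FOSL2, was lower (31.9% of genes). Line cannot be told apart from medium, sequencing depth and count table in this comparison. The largest difference was in FOSB (log2 4.61, SE 0.22, edgeR adjusted p = 2.9e-13), followed by EGR1 (3.06, SE 0.18), FOSL1 (2.44, SE 0.064), ATF3 (1.53, SE 0.15), FOS (1.31, SE 0.17), JUN (1.22, SE 0.069), JUNB (0.67, SE 0.12) and IER3 (0.60, SE 0.13, lost with the GC correction at an adjusted p of 0.0106). FOSL2 was lower in H1792 by 0.22 on the log2 scale (SE 0.062, edgeR adjusted p = 0.00309), a call lost without the filter on low counts and when H1792 DMSO replicate 1 or 2 was left out. JUND did not pass the threshold (0.12, SE 0.15, edgeR adjusted p = 0.466), although without A549 DMSO replicate 1 it did (0.33, edgeR adjusted p = 0.00241), and with the GC correction it was lower in H1792 (-0.25, edgeR adjusted p = 0.00214).

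The response to AMG900 was compared between the lines as an interaction in a single fit over all 14 libraries. FOSL1 rose more in H1792 than in A549, by 0.47 on the log2 scale (SE 0.089, edgeR adjusted p = 0.00069), and was the only 1 of 10 genes with a higher response in H1792 (5.37% of 14769 genes). FOSL2 (-0.39, SE 0.087, edgeR adjusted p = 0.00255) and EGR1 (-0.92, SE 0.24, edgeR adjusted p = 0.00751) rose less in H1792, which makes 2 of 10 genes (9.17% of genes). Only the FOSL1 difference passed the threshold under every alternative tried. The FOSL2 and EGR1 calls were lost with the size factors of DESeq2 (log2 -0.31 and -0.84) and with the GC correction. That of EGR1 was lost also with total counts (edgeR adjusted p = 0.0181). The FOSL2 call was lost also without H1792 AMG900 replicate 2 (adjusted p = 0.0102 by edgeR) or DMSO replicate 3 (0.0117). That of EGR1 was lost when any of 10 of the 14 libraries was left out, with adjusted p up to 0.0297. The EGR1 call held without A549 AMG900 replicate 1, A549 DMSO replicate 1 or 2 or H1792 DMSO replicate 1. ATF3 had a difference of -0.73 (SE 0.2, edgeR adjusted p = 0.0113), just outside the threshold and past it with DESeq2 (0.00119) or with the GC correction (0.0091), and without A549 DMSO replicate 1 (0.00589) or 4 (0.00221). For FOSB, IER3, FOS, JUNB and JUND the test did not resolve a difference, although JUNB (-0.57, edgeR adjusted p = 0.00423) and JUND (-0.53, edgeR adjusted p = 0.00219) passed without A549 DMSO replicate 1. Over all genes, the median interaction was -0.098 with TMM scaling, so the main fit leaned toward a smaller response in H1792 for genes in general. The median was -0.023 with the size factors of DESeq2, -0.010 with total counts and 0.011 with the GC correction, which moved it by 0.11. Of the interaction calls, 36.9% were higher in H1792 with TMM scaling, against 49.5% with the size factors of DESeq2, 48.6% with total counts and 55.5% with the GC correction.

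Levels per kb of transcript (CPM per kb, scaled over all 14 libraries) rank the genes within a group. In A549 with DMSO, JUNB was highest (103 ± 18.2, SD, n = 4), followed by JUND (70.8 ± 21.2) with overlapping libraries, then FOSL1 (43.1 ± 2.64), JUN (36.7 ± 1.57) and FOSL2 (23.3 ± 0.833). IER3 (7.74) and ATF3 (2.52) came next, FOS (1.03) and EGR1 (0.91) overlapped, and FOSB (0.226) was lowest. In H1792 with DMSO, FOSL1 came first at 235 ± 2.21 (n = 3), above JUNB at 162 ± 23.4, and the libraries of JUN (85.0 ± 5.05) and JUND (75.8 ± 9.53) overlapped. FOSL2 (19.9), IER3 (11.6), ATF3 (7.78), EGR1 (7.15), FOSB (5.37) and FOS (2.54) followed, with overlap only between ATF3 and EGR1. With AMG900, the order in H1792 by transcript length stayed the same, with FOSL1 at 451 ± 19.2 and FOS at 3.24. In A549, JUN (60.9 ± 4.9) came level with FOSL1 (60.2 ± 2.77), and EGR1 (2.55) passed FOS (1.86), both with overlapping libraries. The order depends on the length used. By coding length, JUN (440) stood above JUNB (264) in H1792 with AMG900, but not with DMSO (279 against 285). In A549, FOSL2 then ranked 2 with DMSO (160, JUNB 180) and 1 with AMG900 (231, JUNB 226).

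The make-up of the families followed the changes of single genes. FOSL1 supplied 89.4% of the summed Fos family level per kb in H1792 with DMSO and 92.9% with AMG900, while the sum rose from 262 ± 2.31 to 486 ± 20.1 CPM per kb. FOSL2 supplied 7.6% and 4.53% there. In A549, the share of FOSL1 was 63.6% with DMSO and 62.7% with AMG900, that of FOSL2 34.5% and 35.1%, and the sum rose from 67.7 ± 2.26 to 96.1 ± 3.66 CPM per kb. By coding length in place of transcript length, FOSL2 (63.3%) exceeded FOSL1 (35.7%) in A549 with DMSO, since the FOSL2 transcript of 6713 bases has a coding part of 978, whereas FOSL1 stayed first in H1792 (75.2% with DMSO and 83.1% with AMG900). In the Jun family, the share of JUN was 26.4% with DMSO and 35.7% with AMG900 in H1792, and that of JUNB 50.1% and 39.9%. The same shares were 17.8% and 20.7% for JUN and 48.9% and 43.5% for JUNB in A549. By coding length, JUN held 39.7% with DMSO and 50.3% with AMG900 in H1792, and JUNB 40.4% and 30.2%, so JUN came first there with AMG900. In A549, JUNB stayed first by coding length (41.8% and 36.3%, against 28.3% and 32.2% for JUN). The summed Jun level was 323 ± 37.9 with DMSO and 376 ± 1.01 with AMG900 in H1792, and 210 ± 40.6 and 295 ± 35.9 in A549, where replicate 1 again was the highest DMSO library at 270.0.

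**Figure D4:**
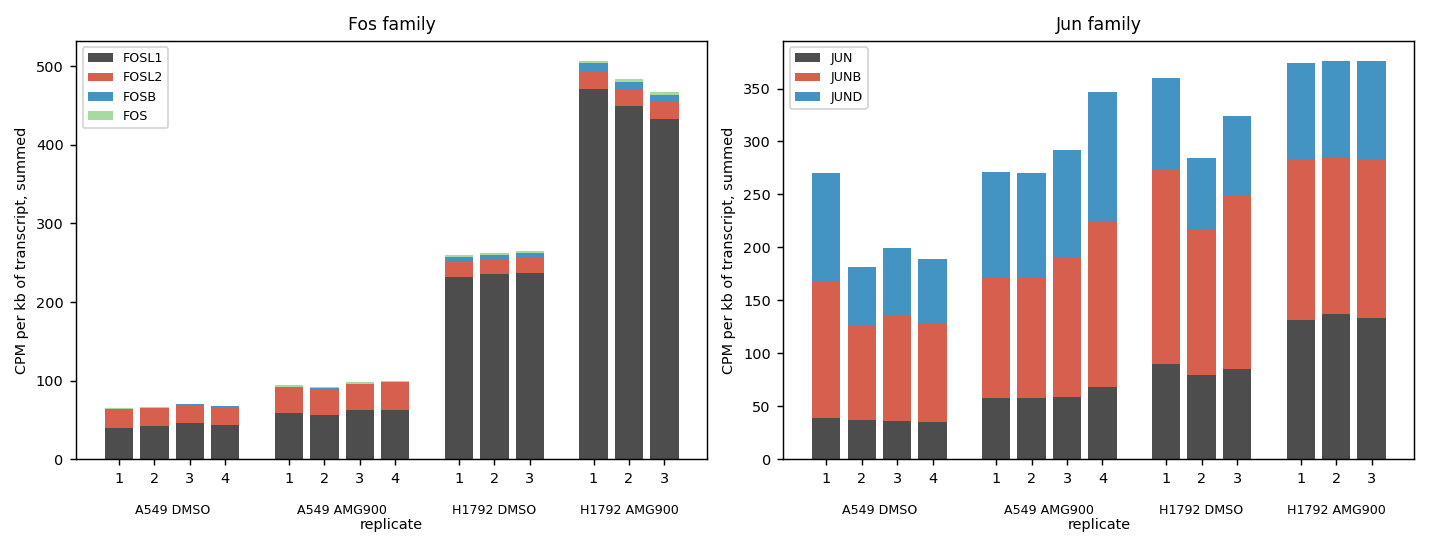
Summed level per kb of transcript (y axis, CPM per kb, stacked by gene) of the Fos family (left) and the Jun family (right) in each library (x axis, replicate number within group). FOSL1 fills most of each Fos bar in H1792, with sums of 467 to 507 with AMG900 against 260 to 265 with DMSO, whereas Jun sums of A549 DMSO replicate 1 and the lowest AMG900 libraries are alike at about 270.

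Genes known as AP-1 targets were tested next, from a list of 30 of which 23 were expressed in A549 and 25 in H1792. This list and those below were also written with earlier results of these data known. In A549, 14 of 23 were upregulated and 2 downregulated, with a median log2 fold change of 0.47, where 17.2% of all genes were called higher and 17.8% lower. The interleukin-1 genes rose most, IL1B from 1.65 ± 0.982 to 11.6 ± 1.03 CPM (log2 fold change 2.73, edgeR adjusted p = 1.4e-06) and IL1A by 2.60 (edgeR adjusted p = 0.00016). The epidermal growth factor receptor ligand EREG fell by 0.80 and the receptor tyrosine kinase AXL by 0.62 on the log2 scale. In H1792, 14 of 25 were upregulated and 1 downregulated, with a median of 0.36, where the shares over all genes were 16.2% and 18.8%. The collagenase gene MMP1 rose from 0.684 ± 0.143 to 3.44 ± 0.248 CPM (log2 fold change 2.35, edgeR adjusted p = 1.2e-05) and the cytokine gene IL11 from 17.3 ± 1.22 to 65.3 ± 3.4 CPM (1.92, edgeR adjusted p = 2.1e-07). EREG was again the downregulated gene, at -0.85 (edgeR adjusted p = 0.00021). With the GC correction, the EREG calls were lost in both lines (edgeR adjusted p = 0.149 in A549 and 0.0797 in H1792), while the counts of upregulated targets stayed within 1.5 times the values given.

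Other basic leucine zipper partners of AP-1 and other immediate early genes moved in both directions. Of 15 partners tested in each line, 5 rose and 1 fell in A549 (against 17.2% and 17.8% of all genes) and 4 rose and 0 fell in H1792 (against 16.2% and 18.8%). Among partners with a mean of at least 20 counts, BATF2 (log2 fold change 1.38) and MAFF (1.37) rose most in A549, where ATF1 fell by 0.66, and MAFA (1.61, with group means below 1 CPM) and BATF3 (0.74) rose most in H1792. Below that mean, MAFA was also called higher in A549 (edgeR adjusted p = 0.00033), from 0 to 3 reads per library with DMSO to 12 to 30 with AMG900. Of the other immediate early genes, 10 rose and 8 fell of 31 in A549, against 17.2% and 17.8% of all genes. In H1792, 7 rose and 9 fell of 36, against 16.2% and 18.8%, which is near the background and says little of the list. The orphan nuclear receptor gene NR4A1 rose in A549 from 10.4 ± 2.84 to 39.2 ± 2.77 CPM (log2 fold change 1.86, edgeR adjusted p = 2.2e-07) and NR4A2 rose by 1.75, whereas KLF2 fell by 1.58 and MYC from 143 ± 4.08 to 48.6 ± 4.8 CPM (-1.56, edgeR adjusted p = 1.7e-09). ARC was called higher in A549 as well, below that mean count (0 to 2 reads per library with DMSO and 11 to 37 with AMG900, edgeR adjusted p = 0.00021), and MAFA and ARC in A549 were named after their values were seen. In H1792, ARC (1.74) and the stress phosphatase subunit gene PPP1R15A (0.80) rose, and the matricellular gene CTGF fell from 122 ± 6.34 to 55.2 ± 0.635 CPM (-1.15, edgeR adjusted p = 7.5e-07), as did the kinase gene SIK1 by 0.67. With the GC correction, 3 partners rose in A549 and 2 in H1792, where 1 fell, and 4 other immediate early genes rose in H1792. The calls for ATF1, MAFA and BATF3 were among those lost, and those for MAFA and BATF3 were lost also without AMG900 replicate 1 or 2, and that for MAFA without DMSO replicate 2 or 3.

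Genes that read out ERK activity, and the kinases and factors upstream of FOS and JUN, were tested as a further pair of lists. Of 17 ERK output genes, 9 rose and 2 fell in A549 (median log2 fold change 0.51), against 17.2% and 17.8% of all genes. In H1792, 2 rose and 4 fell (median -0.04), near the shares of 16.2% and 18.8% over all genes. Among those with a mean of at least 20 counts in A549, the chemokine gene CXCL8, also on the AP-1 target list, rose from 28.8 ± 6.3 to 83.9 ± 10.6 CPM (log2 fold change 1.51, edgeR adjusted p = 5.8e-07). SPRED3 rose by 1.16. Below that mean, SPRY1 was called higher in A549 (1.91, edgeR adjusted p = 0.00266), but it was called lower in H1792 (-0.62, edgeR adjusted p = 0.00016). SPRY1 was named after its values were seen. In H1792, the rises were in PHLDA1 (0.45) and the ERK phosphatase gene DUSP5 (0.30). The ERK pathway inhibitor gene SPRED1 and the ERK-induced factor gene ETV5 were the largest falls in both lines, at -1.03 and -0.73 in A549 and -1.28 and -0.70 in H1792. Of the upstream kinases and factors, 7 rose and 11 fell of 33 in A549 (median -0.22, against 17.2% and 17.8% of all genes), and 4 rose and 11 fell of 35 in H1792 (median -0.21, against 16.2% and 18.8%), so the counts of rises lie near the background in both lines. Among genes with a mean of at least 20 counts, MAPK11 (1.11) and RPS6KA1 (0.78) rose and RPS6KA5 (-1.28) and the JNK gene MAPK8 (-1.21) fell most in A549. MAPK13 (0.57) and MAP2K7 (0.30) rose in H1792, MAP2K7 not with the GC correction, and MAP3K1 (-1.41) and NRAS (-1.30) fell most. With the GC correction, 7 ERK output genes fell in H1792 and 1 in A549, and 2 upstream genes rose and 7 fell in A549. The calls for SPRED1, RPS6KA5 and MAPK8 in A549 and for DUSP5 in H1792 were then lost, and those for SPRED1 and RPS6KA5 in A549 and for DUSP5, MAPK13, MAP2K7 and MAP3K1 in H1792 were lost also when single libraries were left out (edgeR adjusted p between 0.0103 and 0.0348).

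**Figure D5:**
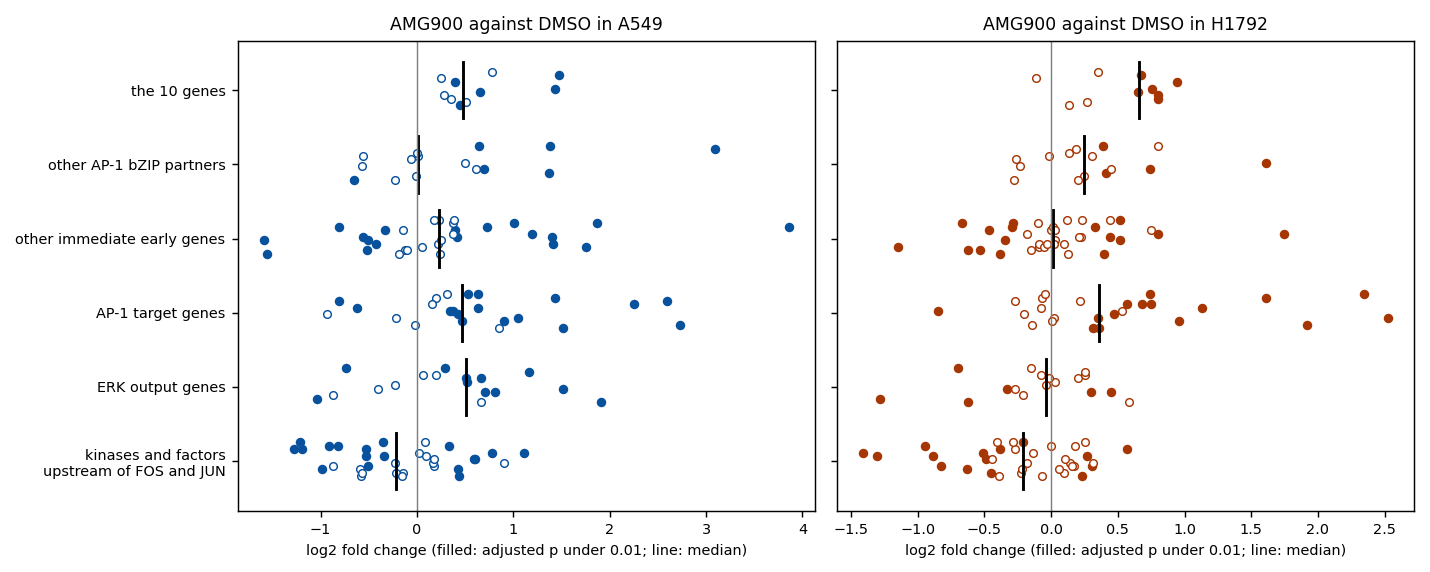
Log2 fold change of AMG900 against DMSO (x axis) for the 10 genes and the genes of the 5 further lists (y axis) in A549 (left) and H1792 (right), with filled points for an edgeR adjusted p under 0.01 and a black line at the median. The x axes of the panels differ in range. Medians of the 10 genes were 0.48 and 0.66 and those of the AP-1 targets 0.47 and 0.36, whereas the median of the ERK output genes was 0.51 in A549 and -0.04 in H1792.

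Across the 14 libraries, the genes whose log2 CPM followed each member most closely were identified as a description, among 10856 genes with a mean of at least 100 counts. The points share lines and depth, so these values mostly reflect the difference between A549 and H1792. Pearson's r was highest for MPV17L2 with FOSL1 (0.997), DYRK1B with FOSL2 (0.997), ARID5A with FOSB (0.994), CIDECP with JUN (0.994), THEMIS2 with EGR1 (0.992), SRA1 with ATF3 (0.986), DEAF1 with FOS (0.981), P3H3 with JUNB (0.968), RPS28 with IER3 (0.965) and PPP1R37 with JUND (0.961). Among the 10 genes themselves, r was 0.981 between FOSB and FOSL1 and 0.974 between JUN and EGR1, whereas FOSL2 ran against FOSB (-0.625) and FOSL1 (-0.553).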

How the data were processed

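The authors deposited raw counts, each value being the reads assigned to a gene symbol, in 1 table per cell line, without normalization. The submitters' processing notes name STAR, HTSeq, hg19 and GRCh37, and their order, versions and the counting options are not given in the sources used here. Total counts per library, 4254644 to 79902934, set the counting error. Replicates varied by 12.8% (A549) and 9.6% (H1792) beyond it, as edgeR's biological coefficient of variation. In H1792, 28 entries named by dates, at most 0.117% of a library, were left out.

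Genes were filtered with filterByExpr, scaled with TMM factors and tested with the quasi-likelihood test of edgeR 4.0.16 (limma 3.58.1, R 4.3.3) with Benjamini-Hochberg adjustment over all genes tested and an FDR threshold of 0.01, within each line, as the interaction of line and treatment, and between lines with DMSO. Log2 CPM used a prior count of 2. The main test was edgeR, and DESeq2 1.42.0, named for the study's DEGs, was an alternative, as were the size factors of DESeq2, total counts, no filter, at least 10 counts in every library, a correction for GC content (a spline with 5 degrees of freedom per library), a block for the replicate number, a looser FDR threshold of 0.05, coding length in place of transcript length for levels, and fits without each single library. The fits were tested on simulated counts with known changes.

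Positions, lengths, GC content and promoter windows came from GRCh37 with the GENCODE annotation, to which 22365 names were matched by current and 1250 by older symbol. Members and lists were chosen with earlier results of these data known. The text names all 10 members and, from each other list and line, up to 2 genes that rose and 2 that fell most among those past the threshold with a mean of at least 20 counts. MAFA and ARC in A549, and SPRY1, were named outside this rule. Gene positions in the text are those of GENCODE on GRCh37. Protein sequences were not used here.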

Additional observations from a re-analysis of the deposited data

Results flagged for a closer look

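The response to AMG900 differed between the lines, by the interaction test, for 3 of the 10 genes: FOSL1 (H1792 minus A549 0.4668 on the log2 scale), FOSL2 (-0.3918) and EGR1 (-0.917). The FOSL1 rise was larger in H1792, and the other 2 were larger in A549. Over all genes, 5.37% were called higher and 9.17% lower by this test, and the median was -0.098. The FOSL2 and EGR1 calls were lost with the size factors of DESeq2, the GC correction or the replicate block, and that of EGR1 also with total counts. With single libraries left out, the EGR1 call held in only 4 of 14 fits and the FOSL2 call in 12 of 14.

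In 20 groups of 4 libraries (10 genes with each treatment of A549), 4 had a library far from the other 3 by Dixon's criterion, which chance gives in about 1 in 20 groups. AMG900 replicate 4 was high for FOSL2 (236.7 CPM), JUN (216.2 CPM) and JUND (231.4 CPM), and DMSO replicate 1, the library with the fewest counts, was high for JUND (209.1 CPM).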

How the results depend on the processing

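ATF3, EGR1, JUN and FOSL2 in A549, and all 6 upregulated genes in H1792, kept their direction and their side of the threshold under every alternative and with any library left out. The calls for FOSL1 in A549 did so except with the GC correction, alone (0.0732) or with the replicate block (0.0727). Signs turned for changes that were not called: with the GC correction, FOSB (-0.00584) and JUNB (-0.184) in A549 and FOSL2 (-0.0143) and JUND (-0.0766) in H1792, with JUND between lines at -0.249; the called MAP2K7 in H1792 moved to -0.0315. With the replicate block and GC correction together the values were -0.184 for JUNB, -0.0139 for FOSL2, -0.0766 for JUND and -0.0283 for MAP2K7. The JUN interaction became 0.000665 with the size factors of DESeq2, 0.0123 with total counts, 0.0775 with the GC correction and 0.079 with block and GC correction. With libraries left out, FOSB in A549 ranged from -0.0312 (without DMSO replicate 4) to 0.758 and its interaction from -0.0859 (without A549 DMSO replicate 3) to 0.795. 

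Among counts of members, 1 was lower in H1792 with the GC correction, also with the replicate block (1), and 0 to 1 with libraries left out. Members with a smaller response in H1792 numbered 2, against 0 with the size factors of DESeq2, 1 with total counts, 1 with the GC correction, 0 with the replicate block and 0 with block and GC correction, and 0 to 5 with libraries left out, 5 without A549 DMSO replicate 1 and 0 without H1792 AMG900 replicate 2 or DMSO replicate 3. Members lower in H1792 with DMSO numbered 0 without the filter, 0 with at least 10 counts in every library and 2 with the GC correction, and 0 to 1 with libraries left out. Ranks per kb were the same by coding length for 6 of 10 genes in each AMG900 group.

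Over all genes, leaving libraries out gave 1382 to 3047 upregulated and 1853 to 3656 downregulated genes in H1792, and an FDR threshold of 0.05 gave 3689 upregulated. Interaction calls higher in H1792 numbered 793, against 1405 with DESeq2, 1378 with the GC correction and 1319 at FDR 0.05, and lower calls 1355, against 807 with block and GC correction and 2297 at FDR 0.05. Replicate numbers did not pair the libraries (correlations of same-numbered libraries between -0.0604 and 0.0425), so the replicate block was only an alternative. Beside the calls named, it made JUND in A549 pass the threshold (0.539). FOS in A549 was called higher with at least 10 counts in every library (adjusted p = 0.00739 by edgeR). The cause of these shifts was not tested. Reads were few in A549 for FOSB, FOS and EGR1, with 4 to 170 per library, although the EGR1 call there held in every fit. The part of depth was not tested, and the single dose and time limit the comparison.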
